A study of Mus musculus with 18 samples.

Results

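Interferon-stimulated genes are described here in RNA from isolated mouse brain endothelial cells, the cells that line cerebral vessels, after loss of Pdcd10 and after chronic hypoxia. Pdcd10 encodes CCM3, an adaptor protein whose loss in endothelium gives cerebral cavernous malformations. The 37 genes were taken from a list of type I and type II interferon-stimulated genes and their regulators. The list was chosen with earlier results of these data known, and gene symbols were matched to the 57010 rows of the deposited count table. All 37 were present, and all 37 were among the 17531 genes abundant enough to test.

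The 18 libraries fell into 4 groups. Flox animals (Pdcd10 fl/fl; Aldh1l1-EGFP/Rpl10a) gave 4 libraries in normoxia and 4 in hypoxia, and KO animals, which carried Slco1c1-iCreERT2 in addition, gave 5 and 5. All groups thus carried the floxed alleles and the astrocyte reporter, and 4-hydroxytamoxifen (50 µg) was given on postnatal day 1, so that Cre, driven by the brain endothelial Slco1c1 promoter, could delete Pdcd10. Uninjected Cre carriers are also mentioned as controls, and the labels do not say which libraries, if any, they gave. Normoxia was 21% O2, hypoxia was 12% O2 for 7 days, and the cells were taken at postnatal day 57. Each library is named below by its group and replicate number. The labels do not say that every library was 1 animal, so p-values measure the spread between libraries.

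Interferons signal through cell-surface receptors to JAK kinases and STAT proteins. Type I interferons (the alpha and beta forms) act through a complex that holds STAT2 and IRF9 and binds the interferon-stimulated response element (ISRE). Interferon gamma, made mainly by T and NK cells, acts through the gamma-activated site (GAS). The targets restrict viruses and intracellular pathogens, and many of them also feed back on the pathway. Brain endothelium carries both receptors and keeps a basal level of many of these transcripts.

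Promoter sequences are shown first because they group the genes by the 2 elements. A RefSeq promoter table (GRCm38.p6, 300 bases each, 250 before to 50 after the transcript start) held 29 of the 37 genes. ISRE was searched as GAAA and GAAA parted by any 2 bases, on both strands, and GAS as TTCNNNGAA, which reads the same on both. ISRE matches stood in the promoters of 18 of the 29 genes (62.1%), against 3.99% of all 27025 genes in the table. GAS matches stood in 10 of the 29 (34.5%), against 9.55% of all genes. Both were present in 6 genes (Oas1a, Bst2, Gbp5, Gbp7, Igtp and Irgm2) and neither in 7 (Irf7, Irf9, Oasl1, Oasl2, Cmpk2, Ifi44 and Xaf1). A match is a run of letters, not a measured binding site. Lack of a match does not show lack of an element, since only these 300 bases and these exact patterns were searched. The 8 stretches below, given 5′ to 3′ in GRCm38.p6 coordinates, carry the matches, in capitals, of genes whose values are given later.
Isg15 (chr4:156200855-156200916, minus strand; 3 ISRE matches): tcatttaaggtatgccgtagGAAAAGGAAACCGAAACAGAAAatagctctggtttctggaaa
Ifit3 (chr19:34583353-34583436, plus strand; 2 ISRE matches): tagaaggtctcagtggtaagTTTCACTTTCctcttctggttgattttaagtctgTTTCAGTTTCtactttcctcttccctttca
Ifit3b (chr19:34607749-34607832, plus strand; 2 ISRE matches): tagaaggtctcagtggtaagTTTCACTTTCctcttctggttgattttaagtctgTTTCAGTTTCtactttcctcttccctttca
Ifit2 (chr19:34550444-34550481, plus strand; 1 GAS match): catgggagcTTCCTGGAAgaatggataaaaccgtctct
Irf1 (chr11:53769904-53769952, plus strand; 1 GAS match): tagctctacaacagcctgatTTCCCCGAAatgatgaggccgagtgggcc
Bst2 (chr8:71537567-71537628, minus strand; 2 ISRE matches and 1 overlapping GAS match): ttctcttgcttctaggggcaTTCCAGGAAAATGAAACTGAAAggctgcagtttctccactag
Igtp (chr11:58199491-58199551, plus strand; 1 GAS and 1 ISRE match): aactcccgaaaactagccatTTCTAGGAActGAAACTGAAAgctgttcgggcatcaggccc
Irgm2 (chr11:58214882-58214942, plus strand; 1 GAS and 1 ISRE match): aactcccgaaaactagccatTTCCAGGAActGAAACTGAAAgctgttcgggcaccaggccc
The stretches of Ifit3 and Ifit3b differed at 0 of 84 positions, and those of the neighbouring genes Igtp and Irgm2 at 2 of 61. Reads of near-identical copies such as Ifit3 and Ifit3b, or of close family members such as the Gbp and Irgm genes, could have been assigned to either copy in the authors' counting, so values within such pairs are less certain. The Ifit3 and Ifit3b deviations from their group means followed each other across the 18 libraries (r = 0.98, a description).

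The 18 libraries held between 17.9 and 31.2 M counts each. Pdcd10 was lower in KO than in flox in both oxygen conditions, by a log2 fold change of -1.08 ± 0.14 (SE; adjusted p = 5.02e-05) in normoxia and -1.17 ± 0.14 (adjusted p = 2.87e-05) in hypoxia, with no overlap between libraries. The 10 endothelial markers summed to between 11877 and 17931 CPM (counts scaled to a common library size), so the labelled cell type was abundant in every library. In hypoxia these sums did not overlap between genotypes, at 15281 to 17497 CPM in flox and 13543.5 to 15233 CPM in KO. In normoxia they overlapped (11877 to 17931 and 12696 to 14882 CPM). Of these 10 markers, 1 was higher and 3 lower in KO in normoxia, and 1 higher and 1 lower in hypoxia. Normoxia flox 4 and normoxia KO 4 stood apart by neuronal markers (1715 and 948 CPM summed, at most 27.0 in the other 16). Hypoxia KO 4 stood apart by leukocyte transcripts, and values without it are given beside the results that it changed. Of 6 smooth muscle markers, 5 fell in KO in normoxia and 5 in hypoxia, and of 8 pericyte markers 2 and 5 rose. In bulk RNA, fewer cells of a type and less RNA per cell cannot be told apart, and the part of such shifts in the results below was not tested. In hypoxia, Y-linked transcripts exceeded Xist in all 4 flox libraries and in 1 of 5 KO libraries, hypoxia KO 4. In normoxia they did so in 1 of 4 flox and 2 of 5 KO libraries, and 3 normoxia libraries (flox 3, flox 4 and KO 4) held both kinds of transcript. Without these 3, the normoxia comparison of the 37 genes gave 0 higher and 3 lower, and Ifit2 no longer passed (adjusted p = 0.116).

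The genes were expressed in every group. On the deposited RPKM scale, which corrects for gene length, the median over 18 libraries ran from 3.05 (Oasl1) to 70.0 (Bst2, tetherin, which holds budding virus particles at the cell surface). Gbp3 (59.1), Isg15 (52.2) and Gbp2 (50.2) followed Bst2, and Gbp6 (3.70) and Mx2 (4.15) were near the lower end. Spread within groups was modest for most: the median coefficient of variation over the 37 genes was 19.9% in normoxia flox, 18.2% in normoxia KO, 13.5% in hypoxia flox and 21.7% in hypoxia KO. Without hypoxia KO 4, the last value was 10.4%. The heat map shows that deep colour is concentrated in the GTPase rows of that library and in the Irf1 row.

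**Figure D1:**
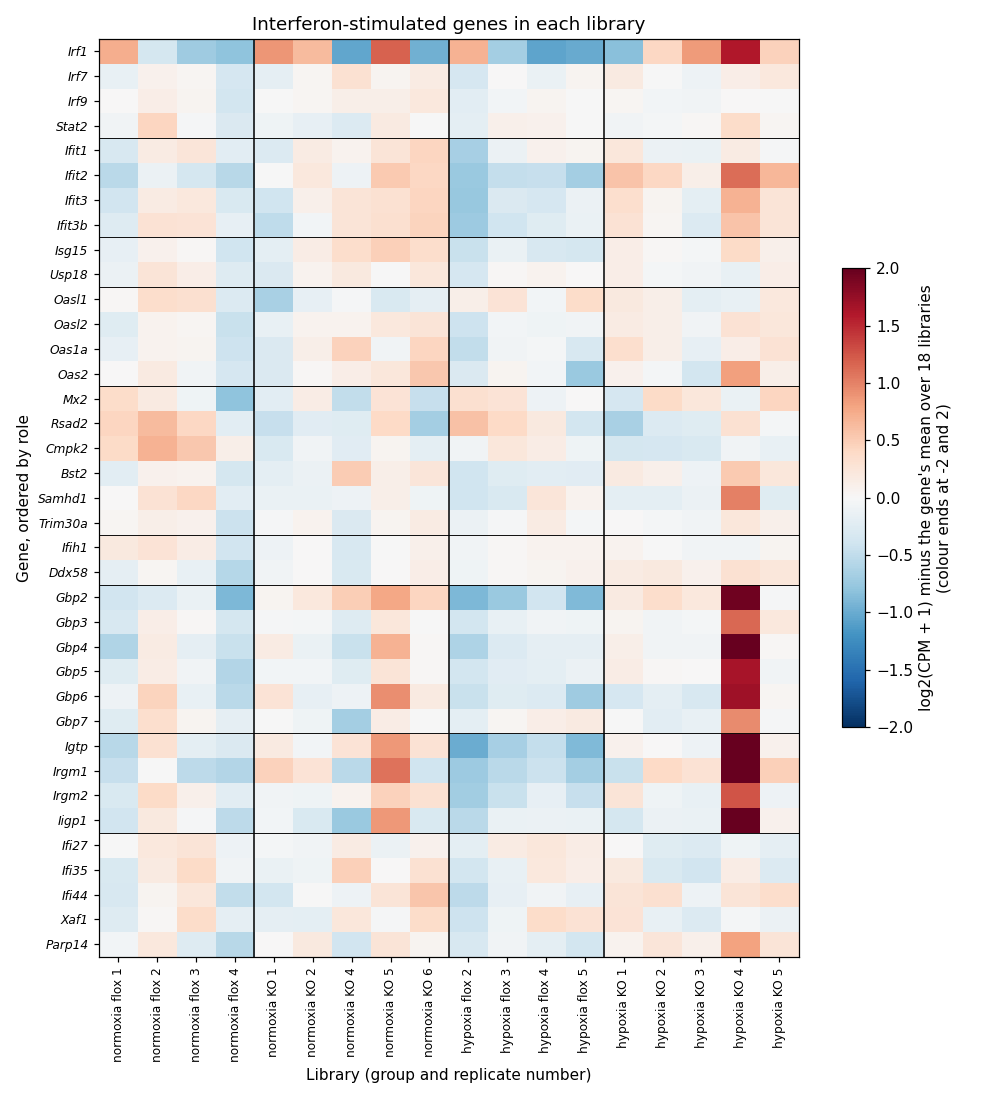
Heat map of the 37 genes (rows, ordered by role) in 18 libraries (columns), as log2(CPM + 1) minus the mean of the gene over all libraries; vertical lines part the groups. Hypoxia KO 4 is the darkest red column in the Gbp, Igtp, Irgm and Iigp1 rows, and Irf1 alternates between high and low libraries in every group.

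In normoxia, 2 of the 37 genes differed between KO and flox: Ifit2 was higher in KO and Cmpk2 lower. Among all genes tested, 16.6% passed in this comparison (9.54% higher and 7.03% lower), so the share of the interferon genes that passed was below the background. The median log2 fold change of the 37 was 0.16, against -0.02 over all genes tested, and 28 of the 37 values were positive. That median was 0.03 without normoxia flox 4, 0.04 without the 2 libraries with neuronal markers, 0.04 without the 3 libraries with Xist and Y-linked counts, and 0.08 and 0.04 with the 2 replicate blocks described with Ifit2 below. Lymphocyte markers differed in the same comparison: 5 of 12 tested were higher in KO and 0 lower (4 of 12 and 1 of 5 higher in the blocked fits), with a median of 1.71 and sums of 2.08 to 14.1 CPM in flox and 7.07 to 23.1 CPM in KO. What part this has in the values of the 37 genes was not tested. Libraries did not overlap between genotypes for 2 genes that were higher in KO (Ifit2 and Gbp2) and 1 that was lower (Cmpk2), against 8.59% and 6.09% of all genes.

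In hypoxia the KO libraries had higher values of 9 of the 37 genes, and of none lower. They were Ifit2, Ifit3, Isg15, Bst2, Gbp2, Igtp, Irgm1, Irgm2 and Parp14. The background was 22.3% (11.4% higher), so 9 of 37 is near the share of all genes. The direction was less even than among all genes: 30 of the 37 values were positive, with a median of 0.37 against -0.00 over all genes tested. Libraries did not overlap for 11 genes, all higher in KO, against 12.0% of all genes. Leaving out hypoxia KO 4 left 3 genes past the test (Ifit2, Gbp2 and Igtp), with a background of 16.5% (8.67% higher), and a median over the 37 of 0.19. The count was also smaller without hypoxia flox 2 (4), flox 3 (5), flox 4 (3) or flox 5 (3). Ifit2 and Gbp2 passed without each of the 18 libraries in turn, and Igtp failed in 1 of those 18 fits (without hypoxia flox 5, adjusted p = 0.0526). The calls of Isg15, Parp14, Ifit3, Bst2, Irgm1 and Irgm2 were each lost without hypoxia KO 4, without hypoxia flox 2 and without hypoxia flox 4. Without hypoxia flox 3, Bst2, Ifit3, Irgm1 and Irgm2 were lost, without hypoxia flox 5 all of the 6 but Ifit3, and without hypoxia KO 5 Bst2 and Ifit3. Adjusted p in these fits was 0.0519 to 0.0951. With the level of Y-linked transcripts minus Xist as a covariate, Bst2, Ifit3 and Isg15 no longer passed in hypoxia. Their differences were 0.43 ± 0.18, 0.57 ± 0.24 and 0.37 ± 0.16 (adjusted p = 0.113, 0.114 and 0.128), and the other calls of the 9 held.

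**Figure D2:**
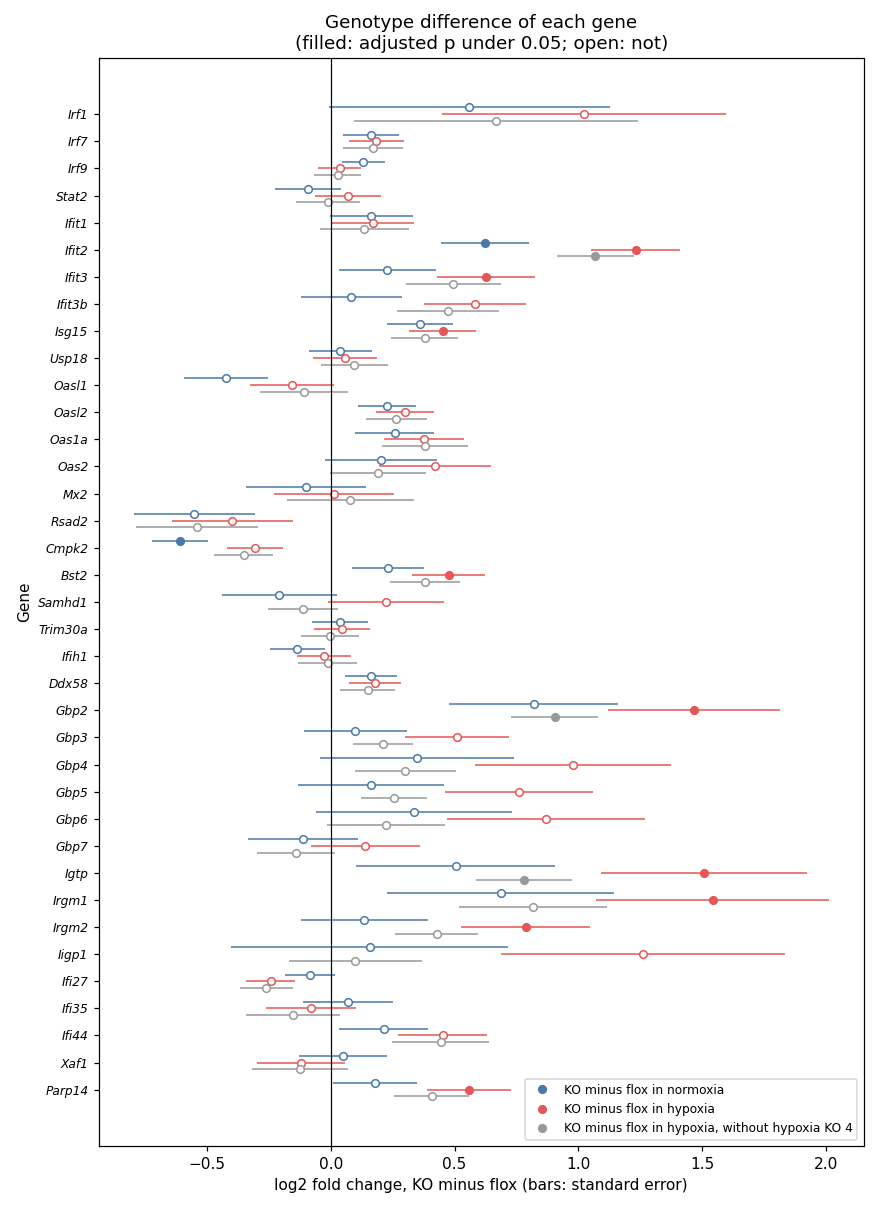
Log2 fold change, KO minus flox, with its standard error, for each gene in normoxia (blue), hypoxia (red) and hypoxia without hypoxia KO 4 (grey); filled points passed an adjusted p of 0.05. Red points of the Gbp, Igtp, Irgm and Iigp1 genes lie right of the grey points, while Ifit2 passed with (1.23) and without (1.07) that library.

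Among the transcription factors, Irf1 had the widest spread and none passed the test. Irf1 is an early interferon gamma target and an activator of many genes in the list. Its CPM were 212, 100.02, 77.9 and 72.6 in normoxia flox, 236, 199.5, 61.6, 290.0 and 65.6 in normoxia KO, 207, 79.3, 60.9 and 63.3 in hypoxia flox and 71.5, 172, 232, 391 and 176 in hypoxia KO. High and low libraries occurred in every group, and the genotypes overlapped in both oxygen conditions. The log2 fold change was 0.56 ± 0.57 in normoxia (adjusted p = 0.574) and 1.02 ± 0.57 in hypoxia (adjusted p = 0.226). Irf7, the amplifier of the type I response, stayed within 69.4 to 109 CPM over all 18 libraries, with log2 fold changes of 0.16 ± 0.11 and 0.18 ± 0.11 (adjusted p = 0.38 and 0.268). Irf9 and Stat2, partners in the complex that binds ISRE, had values of 0.04 ± 0.09 and 0.07 ± 0.13 in hypoxia (adjusted p = 0.826 and 0.763). Their CPM ran from 87.3 to 130.5 and from 97.9 to 162.

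Irf1 followed immediate early genes, transcripts such as Fos and Jun that are induced within minutes of cell stimulation or dissociation. In the 9 libraries whose 12 immediate early genes summed to 20000 CPM or more (22432 to 35351), Irf1 was 172 to 391 CPM. In the other 9 (2237 to 9578) it was 60.9 to 100.02 CPM, with no overlap. The high libraries were 2 of 8 flox (normoxia 1 and hypoxia 2) and 7 of 10 KO, and the level of 20000 was chosen after the values were seen. With the immediate early level as a covariate, the Irf1 difference was -0.07 in normoxia (adjusted p = 0.885) and 0.11 in hypoxia (adjusted p = 0.814). Irgm1 had the same division in KO libraries, at 145 to 595 CPM in the 7 with the higher sum and 82.1 to 90.3 CPM in the other 3. It did not in flox, where the 2 high libraries were at 71.7 and 86.7 CPM, and the other 6 at 74.3 to 119 CPM.

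**Figure D3:**
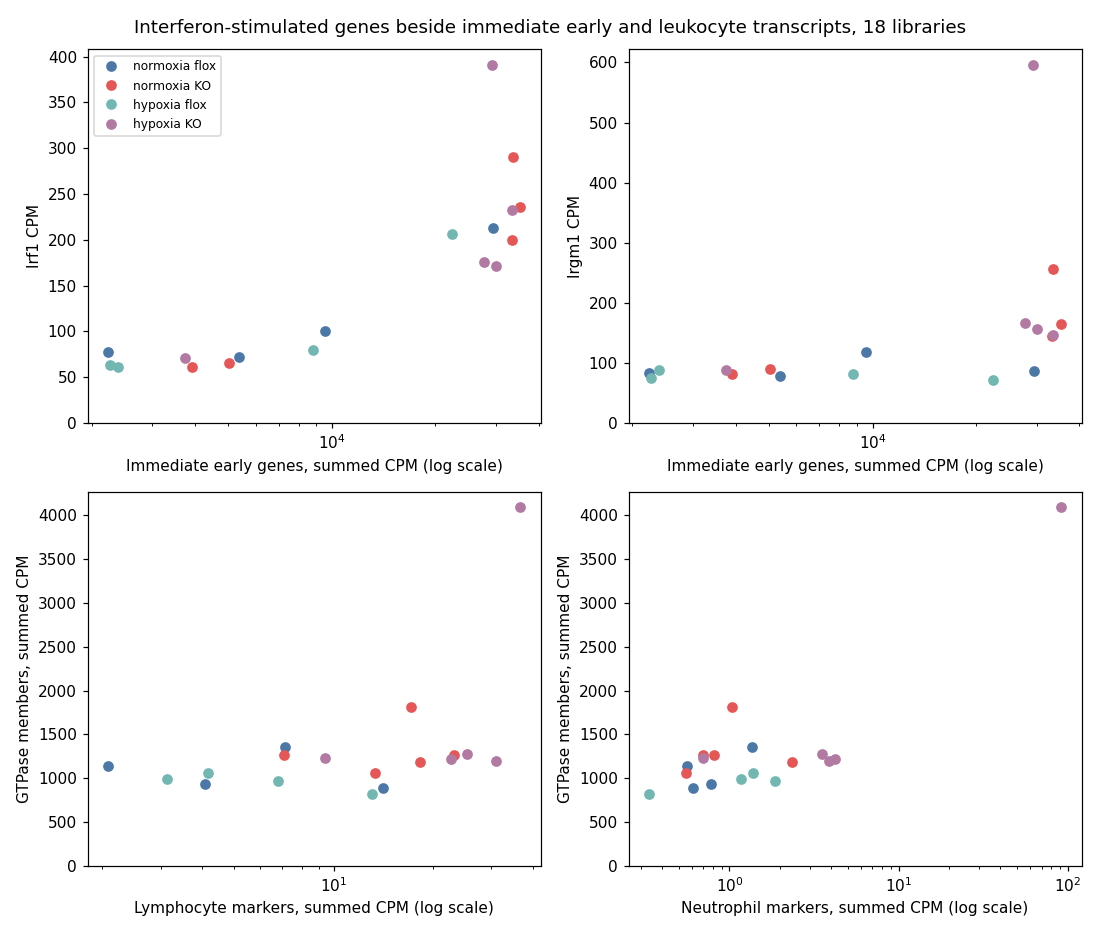
Irf1 and Irgm1 (CPM) against the summed CPM of 12 immediate early genes, and the summed CPM of the 10 GTPase genes against summed lymphocyte and neutrophil markers, with 1 point per library coloured by group and logarithmic horizontal axes. Irf1 lies at 172 CPM or more only in the 9 libraries at the right, and hypoxia KO 4 is the single point near 4099 CPM in the lower panels.

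The tetratricopeptide proteins bind viral RNA or restrain its translation, and Ifit2 passed in hypoxia under every alternative tried. Its CPM were 27.9, 38.0, 32.3 and 27.8 in normoxia flox and 41.2, 47.9, 38.5, 59.6 and 55.3 in normoxia KO. In hypoxia they were 24.3, 29.2, 29.7 and 25.3 in flox and 61.6, 55.1, 44.6, 90.7 and 66.1 in KO. Every KO library was above every flox library of the same oxygen condition. The difference was 0.62 ± 0.18 in normoxia (adjusted p = 0.0239) and 1.23 ± 0.18 in hypoxia (adjusted p = 0.000195), while the fit lacking hypoxia KO 4 gave 1.07 ± 0.16 (adjusted p = 0.000259). Whether shared replicate numbers mark pairs of libraries is not known. With the number as a block, the normoxia difference no longer passed. It was 0.51 over all libraries (adjusted p = 0.16) and 0.40 over the 3 shared numbers (adjusted p = 0.107). Over these 3 numbers without the block it was also 0.40 (adjusted p = 0.368), and there Pdcd10 did not pass either (adjusted p = 0.0512). Of the 37 genes, 1 and 0 passed in these blocked fits, against 10.2% and 4.27% of all genes. The normoxia call of Ifit2 was also lost without normoxia flox 1, flox 3 or flox 4 or without normoxia KO 5 or KO 6.

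Ifit3 CPM in hypoxia were 42.0, 58.2, 56.7 and 66.1 in flox and 90.7, 74.8, 62.5, 116 and 86.1 in KO. The groups overlapped through flox 5 and KO 3. The difference of 0.63 ± 0.20 passed (adjusted p = 0.0319), while the fit lacking hypoxia KO 4 gave 0.49 ± 0.19 (adjusted p = 0.0921). In normoxia the Ifit3 difference was 0.23 ± 0.20 (adjusted p = 0.499). Its copy Ifit3b had 0.58 ± 0.21 in hypoxia (adjusted p = 0.0521) and Ifit1 had 0.17 ± 0.17 (adjusted p = 0.521), and neither passed.

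Isg15, a ubiquitin-like protein that is attached to other proteins, had hypoxia CPM of 26.4, 33.0, 28.9 and 28.2 in flox and 40.0, 36.9, 35.3, 47.7 and 39.2 in KO. The groups did not overlap. The difference was 0.45 ± 0.13 (adjusted p = 0.0243) in hypoxia and 0.36 ± 0.13 in normoxia (adjusted p = 0.0798), while the fit lacking hypoxia KO 4 gave 0.38 ± 0.13 (adjusted p = 0.0677). Usp18, the protease that removes Isg15 and restrains the type I receptor, differed by 0.06 ± 0.13 in hypoxia (adjusted p = 0.804) and 0.04 ± 0.13 in normoxia (adjusted p = 0.875). Its 18 values lay between 19.9 and 30.5 CPM. The 4 oligoadenylate synthetase genes, whose products sense double-stranded RNA or belong to that family, had 0 calls in both genotype comparisons. Their hypoxia differences ran from -0.16 (Oasl1) to 0.42 (Oas2).

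Cmpk2, a mitochondrial nucleotide kinase encoded next to Rsad2, moved opposite to Ifit2. Its CPM were 63.0, 78.5, 69.8 and 52.3 in normoxia flox and 38.4, 45.4, 40.6, 50.0 and 41.6 in normoxia KO. In hypoxia they were 45.7, 56.2, 53.1 and 45.1 in flox and 37.2, 37.8, 38.6, 45.3 and 43.1 in KO. In normoxia the lowest flox library was above the highest KO library, and in hypoxia the groups overlapped only at KO 4. The difference was -0.61 ± 0.11 in normoxia (adjusted p = 0.00121) and -0.31 ± 0.11 in hypoxia (adjusted p = 0.0617). The normoxia call held without each of the 18 libraries in turn and with the replicate block over all libraries, and with the block over shared numbers it was -0.67 (adjusted p = 0.0519). Rsad2 (viperin), its neighbour, had -0.55 ± 0.24 in normoxia (adjusted p = 0.143) and -0.40 ± 0.24 in hypoxia (adjusted p = 0.272), and did not pass.

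Bst2 in hypoxia had CPM of 49.5, 55.1, 56.3 and 55.8 in flox and 74.1, 70.0, 60.6, 94.6 and 77.1 in KO. The groups did not overlap, and the flox values lay close together. The difference was 0.48 ± 0.15 (adjusted p = 0.0291), while the fit lacking hypoxia KO 4 gave 0.38 ± 0.14 (adjusted p = 0.0827). In normoxia it was 0.23 ± 0.15 (adjusted p = 0.327). The other antiviral effectors Mx2, Samhd1 and Trim30a and the RNA sensors Ifih1 (MDA5) and Ddx58 (RIG-I) did not pass in either condition. Their hypoxia differences lay between -0.03 (Ifih1) and 0.22 (Samhd1).

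The 10 GTPase genes encode guanylate-binding proteins (Gbp2 to Gbp7) and immunity-related GTPases (Igtp, Irgm1, Irgm2 and Iigp1), which attack the vacuoles of intracellular pathogens and are strongly induced by interferon gamma. In hypoxia 1 of 6 Gbp genes and 3 of 4 immunity-related GTPases passed, all higher in KO, against the background of 11.4% higher. Without hypoxia KO 4 these counts were 1 of 6 and 1 of 4. Gbp2 CPM were 68.9, 77.2, 99.2 and 69.8 in flox and 147, 166, 149.9, 499.6 and 127 in KO. All KO libraries lay above all flox libraries, and hypoxia KO 4 was 3.37 times the median of the other 4. The difference was 1.47 ± 0.35 (adjusted p = 0.00727), while the fit lacking hypoxia KO 4 gave 0.90 ± 0.18 (adjusted p = 0.00259). In normoxia, Gbp2 was 99.0, 107, 118 and 68.9 in flox and 134, 151, 183, 223 and 175 in KO. These groups did not overlap either, and the difference of 0.82 ± 0.34 had an adjusted p of 0.12. The same difference passed in the fit lacking hypoxia KO 4, at 0.82 ± 0.17 (adjusted p = 0.00299), and with the 2 normoxia groups alone (adjusted p = 0.0225). Of 34 alternatives, 3 called this normoxia difference and 31 did not. It ran from 0.62 to 0.90 over them, with an adjusted p of up to 0.398.

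Igtp (Irgm3) had hypoxia CPM of 37.8, 47.6, 54.6 and 40.8 in flox and 81.4, 77.0, 70.7, 332 and 81.4 in KO. The lowest KO library was above the highest flox library. The difference was 1.51 ± 0.42 (adjusted p = 0.017), while the fit lacking hypoxia KO 4 gave 0.78 ± 0.20 (adjusted p = 0.0129). Of 34 alternatives, 5 lost this call. Among them were the 2 hypoxia groups alone (1.49, adjusted p = 0.0611) and the shared replicate numbers without and with the block (adjusted p = 0.0538 and 0.0736). Irgm1, a regulator of the other immunity-related GTPases, had 71.7, 82.1, 88.8 and 74.3 in flox and 87.8, 157, 146, 595 and 167 in KO. Hypoxia KO 1 was within the flox range, and the other 4 KO libraries were above it. The difference of 1.54 ± 0.47 (adjusted p = 0.028) was 0.82 ± 0.30 without hypoxia KO 4 (adjusted p = 0.0753), and 1.03 with the immediate early covariate (adjusted p = 0.172). With the 2 hypoxia groups alone it was 1.53 ± 0.53 (adjusted p = 0.0642).

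Irgm2 had hypoxia CPM of 83.8, 99.8, 121 and 98.5 in flox and 163, 128, 124, 328 and 127 in KO. The groups did not overlap, with flox 4 just below KO 3. The difference was 0.79 ± 0.26 (adjusted p = 0.0394), while the fit lacking hypoxia KO 4 gave 0.43 ± 0.17 (adjusted p = 0.0951). It was 0.78 ± 0.30 with the 2 hypoxia groups alone (adjusted p = 0.0892). With the immediate early covariate it was 0.87 ± 0.30 (adjusted p = 0.0501). Iigp1 had the highest single-library ratio in the list and did not pass, at 1.26 ± 0.57 (adjusted p = 0.131), and the fit lacking hypoxia KO 4 gave 0.10 ± 0.27 (adjusted p = 0.861). The normoxia differences of the 10 GTPase genes ran from -0.11 (Gbp7) to 0.82 (Gbp2).

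Parp14, an ADP-ribosyltransferase, had hypoxia CPM of 122, 144, 132 and 118 in flox and 160.4, 179, 164, 265 and 181 in KO. The groups did not overlap. The difference was 0.56 ± 0.17 (adjusted p = 0.0279), while the fit lacking hypoxia KO 4 gave 0.41 ± 0.15 (adjusted p = 0.0784). With the immediate early covariate it was 0.41 ± 0.18 (adjusted p = 0.11). In normoxia it was 0.18 ± 0.17 (adjusted p = 0.551). Of the other interferon-induced genes, Ifi44 had 0.45 ± 0.18 in hypoxia (adjusted p = 0.0831) and Ifi27 had -0.24 ± 0.10 (adjusted p = 0.0915), and Ifi35 and Xaf1 lay between -0.12 and 0.07 in both conditions.

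**Figure D4:**
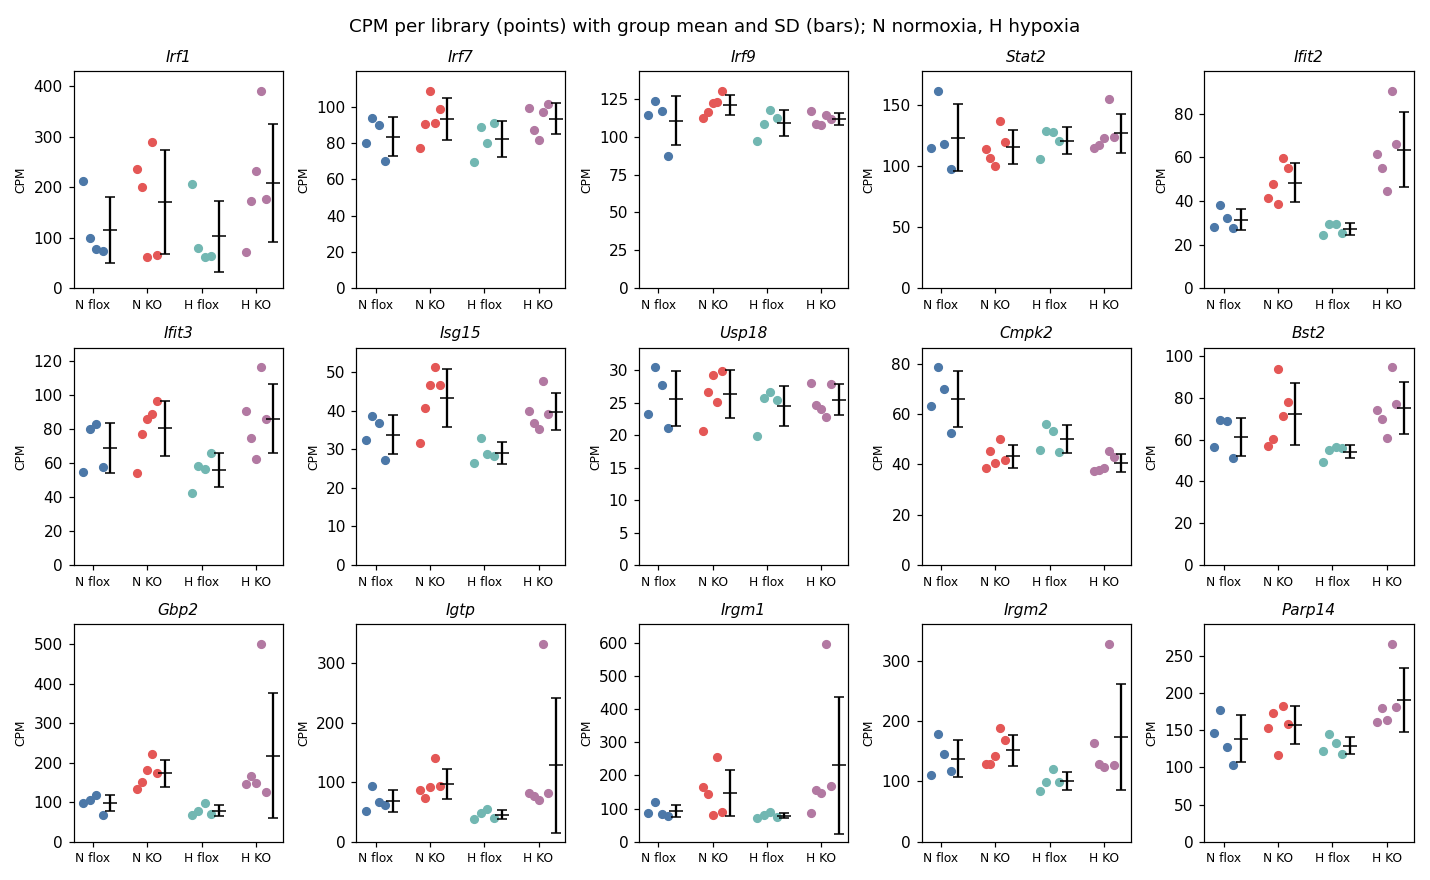
CPM of 15 genes in each library (points) by group, with the group mean and SD (bars). Ifit2 and Gbp2 libraries do not overlap between genotypes in either oxygen condition, Cmpk2 is lower in KO in normoxia, and 1 hypoxia KO point is far above the rest for Gbp2, Igtp, Irgm1 and Irgm2.

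Hypoxia KO 4 carried a separate pattern. In it, 12 of the 37 genes reached at least 2 times the median of the other 4 hypoxia KO libraries, against 4.57% of all genes tested and 2.01% of the 9878 genes at least as abundant as the least abundant of the 37. All 10 GTPase genes were among them, with 2 of the other 27 (Samhd1 and Irf1). Iigp1 was 461 CPM there and 54.6 to 74.1 CPM in the other 4, a ratio of 7.18 to their median. Igtp was 332 against 70.7 to 81.4 CPM, Gbp4 648 against 155 to 176 CPM, and Irgm1 595 against 87.8 to 167 CPM. The GTPase genes together reached 4099 CPM, against 822 to 1807 CPM in the other 17 libraries. The ratios of the other 27 genes ran from 0.72 (Mx2) to 2.33 (Samhd1). This library had the highest value of all 18 for 21 of the 37 genes, against 11.5% of all genes tested.

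**Figure D5:**
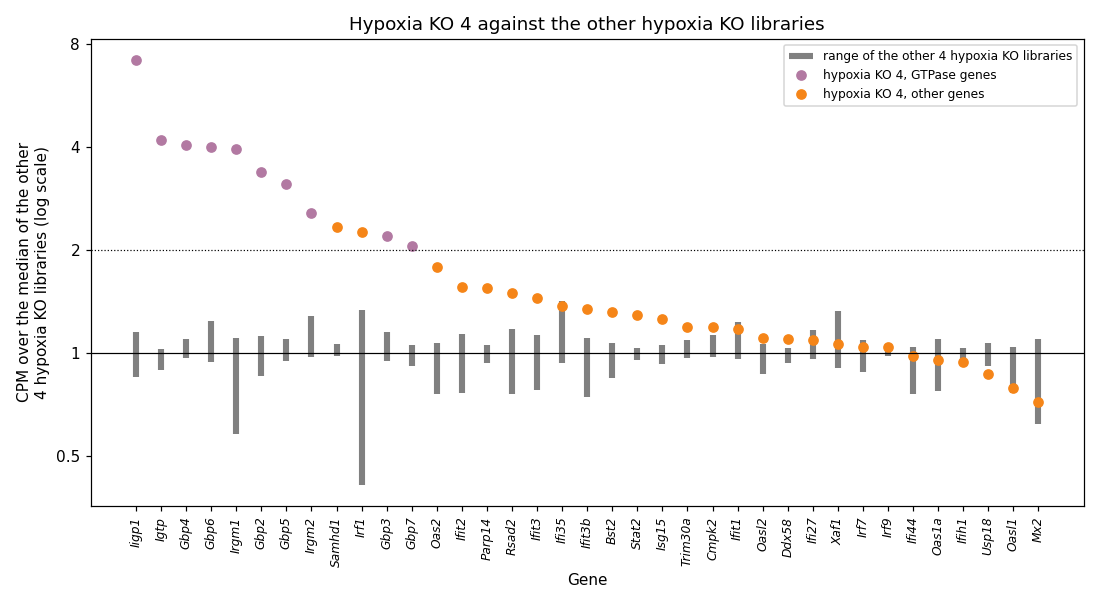
CPM of each gene in hypoxia KO 4 (points) divided by the median of the other 4 hypoxia KO libraries, whose range is the grey bar, on a logarithmic axis. The GTPase genes fill the left side, from 7.18 for Iigp1 to 2.06 for Gbp7, and 25 of the 37 genes lie below 2.

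The same library differed in leukocyte transcripts. Its 6 neutrophil markers summed to 91.3 CPM, against at most 4.20 CPM in the other 17, with S100a8 at 29.2 CPM and S100a9 at 49.4 CPM. Ly6g was at 0 in both flox groups. Its 14 lymphocyte markers summed to 36.6 CPM, against 2.08 to 30.9 CPM in the others. Ifng had 16 counts there and at most 4 in any other library. In hypoxia, 10 of 12 tested lymphocyte markers, 2 of 2 neutrophil markers and 4 of 14 microglia and macrophage markers were higher in KO, while Cd163 was lower, with summed lymphocyte ranges of 3.13 to 13.1 CPM in flox and 9.42 to 36.6 CPM in KO. Without hypoxia KO 4, 7 of 11, 0 of 2 and 2 of 13 were higher. A leukocyte marker score was the mean log2 CPM of the tested microglia, macrophage and lymphocyte markers, without the neutrophil markers. In hypoxia this score was -1.60 to -0.24 in flox and -0.20 to 1.65 in KO, with no overlap. A fit with the score thus cannot tell it well apart from genotype in hypoxia. With the score as a covariate, 3 of the 37 genes passed in hypoxia (Ifit2, Oasl2 and Ifi44), against a background of 7.53%. The median over the 37 was 0.35 with the covariate and 0.37 without it. Ifit2 was 1.24 ± 0.26 (adjusted p = 0.00826) and Gbp2 1.15 ± 0.52 (adjusted p = 0.189). Ifit3 at 0.83 ± 0.28 (adjusted p = 0.0774), Isg15 at 0.53 ± 0.19 (adjusted p = 0.0973) and Bst2 at 0.52 ± 0.21 (adjusted p = 0.144) had folds no smaller than without the covariate and larger standard errors. Gbp2 and the remaining called genes had smaller folds than without the covariate. Irgm1 was 0.52 ± 0.67 against 1.54, and Igtp 0.80 ± 0.58 against 1.51. Irgm2 was 0.66 ± 0.38 against 0.79, and Parp14 0.51 ± 0.25 against 0.56. Adjusted p of these 4 genes with the covariate was 0.226 (Parp14) to 0.698 (Irgm1). Irf1 was -0.12 ± 0.79. What part these cells have in the values of the 37 genes was not tested. Hypoxia KO 4 was also the only hypoxia KO library in which Y-linked transcripts exceeded Xist, and without it sex and genotype cannot be told apart in hypoxia.

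The promoter classes, which share genes, are set beside the ratios in hypoxia KO 4 as a description. The median ratio was 1.39 for the 18 genes with an ISRE match, 2.15 for the 10 with a GAS match, 2.31 for the 6 with both and 1.04 for the 7 with neither. Of the 6 with both matches, 4 were at least 2 times the median (Gbp5, Gbp7, Igtp and Irgm2, whose sequence is shown above), and Oas1a and Bst2 were not. With a GAS match alone, Samhd1 (2.33) and Irf1 (2.25) were at least 2 times the median, and Ifit2 and Ifi35 were not. With an ISRE match alone, Irgm1 (3.93), Gbp2 (3.37) and Gbp3 (2.20) were, and the others were not. Iigp1 (7.18), Gbp4 (4.05) and Gbp6 (3.99) were not in the promoter table and are in no class. Deviations from group means followed each other more closely within the GTPase genes (median r over 45 pairs 0.90, and 0.69 without hypoxia KO 4) and within the Ifit, Isg15 and Oas genes (0.69, and 0.75 without it) than between these sets (0.48, and 0.46). These pairs share libraries and depth.

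None of the 37 genes passed the test of hypoxia against normoxia in either genotype. In flox the edgeR test called 0 (2.81% of all genes passed), 1 gene had an unadjusted p under 0.05, and DESeq2 and limma (on log2 RPKM) called 0 and 0. The values were mostly negative (31 of 37), with a median of -0.10 against -0.03 over all genes. In KO the edgeR test called 0 (1.48% of all genes), 2 genes had an unadjusted p under 0.05, and DESeq2 and limma called 0 and 0. Here 28 of 37 were positive and the median was 0.12, against -0.03 over all genes. When hypoxia KO 4 was left out, 13 were positive and the median was -0.04. These 2 comparisons share no libraries, but each shares its libraries with the genotype comparisons. Cmpk2 had the lowest adjusted p in flox (0.101, at -0.40 ± 0.12), and it passed, as the 1 gene called, without normoxia flox 4.

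The genotype difference was not shown to depend on oxygen for any of the 37. The interaction called 0 genes with edgeR (0.445% of all genes), 1 had an unadjusted p under 0.05, and DESeq2 and limma called 0 and 0. Of the 37 interaction values 33 were positive, with a median of 0.24 against 0.01 over all genes. The fit lacking hypoxia KO 4 had 25 positive values and a median of 0.08. The Ifit2 interaction was 0.61 ± 0.25 (adjusted p = 0.768), and the Gbp2 interaction 0.65 ± 0.48 (adjusted p = 0.993).

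The rest of the pathway was read from lists of ligands, receptors, signal proteins and further target genes, whose counts stand beside the shares of all genes given above (9.54% higher and 7.03% lower in normoxia, 11.4% higher in hypoxia). Of 10 ligand genes, none was abundant enough to test. Ifnb1, the first type I ligand made by most cells, had 2 counts over all 18 libraries, and 6 ligand genes had none. Of 5 receptor genes tested, 0 rose and 1 fell in normoxia (Il10rb, -1.18 ± 0.30, adjusted p = 0.0136, and 0.0983 with the block over shared numbers). In hypoxia 1 rose (Ifngr2, 0.50 ± 0.13, adjusted p = 0.0103) and 1 fell (Il10rb, -0.88 ± 0.31, adjusted p = 0.0492), and without hypoxia KO 4 Il10rb no longer passed (adjusted p = 0.12). Ifngr2, a chain of the interferon gamma receptor, had CPM of 27.1, 24.5, 24.7 and 25.4 in hypoxia flox and 33.0, 40.9, 31.8, 39.6 and 34.8 in hypoxia KO, with no overlap. The hypoxia values of Ifnar1, Ifnar2 and Ifngr1 were 0.18 ± 0.14, -0.05 ± 0.14 and 0.23 ± 0.09 (adjusted p = 0.383, 0.867 and 0.0738).

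Among 9 JAK, STAT and IRF genes, 2 rose in normoxia (Jak1 and Irf5) and 0 fell. With the replicate block over all libraries 1 of them passed (Jak1, adjusted p = 0.0252; Irf5, adjusted p = 0.063), and over shared numbers neither did (adjusted p = 0.206 and 0.154). In hypoxia 3 rose (Jak1, Irf8 and Irf5) and 1 fell (Tyk2, -0.49 ± 0.13). Without hypoxia KO 4, Irf8 and Irf5 no longer passed (adjusted p = 0.0816 and 0.081). Jak1, the kinase shared by both receptor types, had 133, 139, 125 and 128 CPM in normoxia flox and 161, 179, 154, 167 and 171 in normoxia KO. In hypoxia it had 123, 118, 119 and 117 in flox and 157, 180.3, 171, 202 and 168 in KO. The genotypes did not overlap in either condition, and the difference was 0.34 ± 0.07 (adjusted p = 0.00248) and 0.56 ± 0.07 (adjusted p = 4.62e-05).

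Of 6 feedback inhibitors, 2 rose in normoxia and 3 in hypoxia, and none fell. Ptpn6 (SHP-1, a phosphatase abundant in leukocytes) rose by 1.60 ± 0.37 and 2.21 ± 0.35, and Pias1 by 0.38 ± 0.09 and 0.52 ± 0.09. Both passed in normoxia with the block over all libraries and neither over shared numbers (adjusted p = 0.123 and 0.157). Of 13 nucleic acid sensing genes, 3 rose in normoxia and 5 in hypoxia, and none fell. Ikbke, a kinase that phosphorylates IRF3 and IRF7, had the largest rise in normoxia, 2.74 ± 0.24 (adjusted p = 1.31e-06), from 1.17 to 1.78 CPM in flox to 8.07 to 12.9 CPM in KO. Tmem173 (STING) rose by 0.62 ± 0.18 and 0.66 ± 0.17, and its normoxia call was lost in both blocked fits (adjusted p = 0.121 and 0.252). In each of these fits 1 of the 13 passed (Ikbke). Without hypoxia KO 4, 4 of the 13 were higher in hypoxia KO.

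Of 62 further interferon-stimulated genes tested in a list compiled with earlier results known, 11 rose and 0 fell in normoxia, and 18 rose and 2 fell in hypoxia (Trim21 and Trim34a). Without hypoxia KO 4 the hypoxia counts were 12 and 1, the latter Trim21. Median log2 fold changes were 0.11 in normoxia and 0.34 in hypoxia, and 0.11 in hypoxia without hypoxia KO 4. With the replicate block, 7 of 62 rose in normoxia over all libraries and 3 of 59 over shared numbers. Slfn2, a regulator of leukocyte quiescence, rose by 3.44 ± 0.34 and 3.55 ± 0.35 (adjusted p = 3.25e-06 and 5.12e-06). Its CPM were 1.30, 1.19, 1.14 and 0.980 in hypoxia flox and 11.3, 11.1, 10.2, 24.2 and 11.02 in hypoxia KO. The DNA sensor family member Ifi204 rose by 2.66 ± 0.36 and 3.71 ± 0.36, Ifi211 by 2.998 ± 0.46 and 4.51 ± 0.48, and Ifi27l2a by 3.17 ± 0.42 and 1.95 ± 0.40. Lgals9 (galectin-9) rose by 0.82 ± 0.12 and 0.68 ± 0.12. The normoxia calls of Ifi204 and Lgals9 were lost with the block over shared numbers (adjusted p = 0.0564 and 0.059). Mx1, which is defective in many inbred mouse strains, was at most 1.503 CPM in any library and did not pass (-0.66 ± 0.33 and -0.05 ± 0.33).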

How the data were processed

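RNA from isolated brain endothelial cells was sequenced from 18 libraries in 4 groups, named from the sample titles. The authors deposited 1 table of read counts per gene and 1 of RPKM (reads scaled for gene length and library size, rounded to 1 decimal). The submitters' processing notes name HISAT2, edgeR and the build GRCm39, without versions. A stranded mRNA kit was used, per the labels' protocols, and the strand setting and counter are not given in the sources used here.

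Counts were tested with edgeR 4.0.16 in R 4.3.3 (TMM scaling, default low-count filter, robust quasi-likelihood fit of all 4 groups together). Benjamini-Hochberg adjustment ran over all 17531 genes tested, with a threshold of 0.05. Every adjusted p in the text comes from this edgeR test unless another tool is named. Errors after ± are standard errors of log2 fold changes. CPM were taken on TMM-scaled totals, and the deposited RPKM served to compare levels between genes. Alternatives used DESeq2 1.42.0 and limma 3.58.1 (on log2 of RPKM plus 0.10), other filters and scalings, covariates, and fits without each library. Figures were drawn with matplotlib 3.10.9.

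Gene symbols came from a GRCm38 annotation that matched 91.3% of identifiers, and identifiers without a symbol held 0.723% of counts. The 37 genes and the lists were chosen with earlier results of these data known. Values per library are given for genes called in at least 1 of the 5 comparisons and for Irf1, Irf7, Irf9, Stat2, Isg15 and Usp18, by range for the least variable of these. From each pathway list come up to 4 passing genes per comparison and genes fixed by name, of which 1 is not reported here.

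Replicate numbers are shared between groups. In normoxia, deviations of same-numbered flox and KO libraries from their group means correlated at 0.58, 0.29 and 0.85. Those of unlike number correlated at -0.67 (flox 2 and KO 4) to 0.71 (flox 3 and KO 6). These values do not settle whether the numbers pair libraries. Blocked values stand beside the normoxia results whose call or count they changed. The depth of 17.9 to 31.2 M counts per library limits precision mainly for genes of low counts. The fitting scripts were tested on simulated data.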

Additional observations from a re-analysis of the deposited data

Results flagged for a closer look

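Of 152 gene and group combinations tested, 20 held a library at an end of its group, separated from the nearest other library by a large part of the group's range (Dixon's test at the 95% level, which chance passes in about 1 of 20 groups). Hypoxia KO 4 gave 14 of the 20. Its flagged GTPase values were 499.6 CPM for Gbp2, 431 for Gbp3, 648 for Gbp4, 427 for Gbp5, 80.5 for Gbp6 and 296 for Gbp7, and 332 for Igtp, 595 for Irgm1, 328 for Irgm2 and 461 for Iigp1. Parp14 (265 CPM), Samhd1 (287 CPM) and Stat2 (155 CPM) were flagged in the same library, as was the sum over the 37 genes (6773 CPM).

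Hypoxia flox 2 was flagged for Irf1 (207 CPM, the highest of its group), Oasl2 (85.3 CPM) and Iigp1 (47.8 CPM). It was also the hypoxia flox library with the highest immediate early sum, 22432 CPM. The other flagged values were Samhd1 at 154 CPM in normoxia KO 5, Trim30a at 68.1 CPM in normoxia flox 4 and Ifi44 at 46.7 CPM in hypoxia KO 3.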

How the results depend on the processing

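No genotype or oxygen difference of a named gene reversed its direction while called under any alternative run. The normoxia count of 2 of the 37 genes was 1 with limma on RPKM, 1 with the replicate block over all libraries, 0 with the replicate block over shared numbers, 0 over those numbers without the block (chosen after seeing the data), 4 without the 2 neuron-marker libraries, 6 without hypoxia KO 4 and with the immediate early score together (also chosen after seeing the data), and 1 to 3 without single libraries. The hypoxia count of 9 (all higher) was 3 with the leukocyte score (all higher), 5 with limma on RPKM (3 higher and 2 lower), 12 with DESeq2 (all higher), and 3 to 12 without single libraries. Cmpk2 was called lower in hypoxia in 8 of 34 alternatives. In hypoxia the replicate block gave 7 over all libraries and 6 over shared numbers, counts that include genes not called in the main fit. Over all libraries Irgm1, Irgm2 and Parp14 lost their calls (adjusted p = 0.0657 to 0.0674). Over shared numbers Ifit3, Igtp, Irgm1, Irgm2 and Isg15 did (adjusted p = 0.0509 to 0.0809). Same-numbered hypoxia libraries correlated at 0.16, 0.04, -0.18 and -0.34, which does not settle whether the numbers are pairs. The oxygen count in flox was 1 (Cmpk2) without the 2 neuron-marker libraries, and 0 to 1 without single libraries. Why the counts moved was not tested. Beside the values in the report, the replicate block ended no other normoxia call that the report gives by gene. The oxygen comparison in KO and the interaction stayed at 0 in every alternative run. Over the single genes, 2408 alternative values stayed on their side of the threshold, 81 lost a call and 16 gained one.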

Other observations

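Of the 62 further interferon-stimulated genes tested, 25 were in hypoxia KO 4 at least 2 times the median of the other hypoxia KO libraries (4.57% of all genes tested), and 33 were highest there of all 18 libraries (11.5%). The next 6 genes were chosen after their values were seen. Cxcl9, a T cell chemoattractant, was 16.5 CPM there and at most 2.19 CPM in the other 17 libraries. Tap1, which loads peptides for class I antigen presentation, was 207 CPM against 36.7 to 82.8 CPM, and Nlrc5, the activator of class I genes, was 114 CPM against 9.09 to 52.8 CPM. Tgtp1, another GTPase, was 490.2 CPM against 30.5 to 172 CPM, and Zbp1, a nucleic acid sensor, was 63.7 CPM against 3.50 to 12.7 CPM. Cxcl10 was not highest there, at 28.7 CPM against 1.43 to 30.9 CPM.

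Normoxia KO 5 had the second highest GTPase sum, 1807 CPM, against 1054 to 1266 CPM in the other 4 normoxia KO libraries. It was also the highest of the 17 libraries other than hypoxia KO 4 for Tap1, Nlrc5, Tgtp1 and Zbp1. Its neutrophil markers summed to 1.04 CPM and its lymphocyte markers to 17.1 CPM, both within the range of the other normoxia KO libraries.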
